A study of Mus musculus with 3 samples.

Results

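The translation initiation and elongation factor genes were taken as the rows of the blastocyst gene count table on chromosomes 1 to 19 whose symbols begin with Eif1 to Eif6 or with Eef1 or Eef2, leaving out the Eif2ak kinases and pseudogenes. This rule, which uses no measured value, gave 56 of the 24063 genes listed, of which 48 were Eif genes and 8 were Eef genes. It also takes in genes that are named after these factors but work elsewhere, such as Eif1ad, Eif4enif1, Eif4a3 and Eef1e1, and Eef2k, a kinase of eEF2. The question was whether these genes were lower in NOD, as 58 of 79 ribosomal protein genes were in both NOD libraries.

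Low-input RNA-Seq libraries were analysed from blastocysts, 1 from B6 (C57BL/6) and 2 from NOD, a strain that develops autoimmune diabetes. The embryos were untreated, and neither a transgene nor an age beyond the blastocyst stage is given in the sources used here. Labels describe whole blastocysts, whereas the methods of the study describe single inner cell masses isolated by immunosurgery. With 1 B6 library, strain and whatever is particular to that library cannot be told apart, and the p-values measure only the spread between these samples, which may be technical. Within a group that spread comes from the NOD pair alone, and is taken to hold for B6 as well. In this pair the Y-linked Eif2s3y had 3122 counts in NOD 1 and 0 in NOD 2, and the part of embryo sex was not tested. In such bulk samples fewer cells of a type and less RNA per cell cannot be told apart either.

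Translation begins when initiation factors bring the initiator tRNA, the small ribosomal subunit and the capped mRNA together and the start codon is found. Elongation factors then deliver each charged tRNA to the ribosome and move the ribosome along the mRNA. The mRNAs of ribosomal proteins and of several elongation factors begin with a run of pyrimidines, the terminal oligopyrimidine (TOP) motif, through which their translation follows mTORC1 activity. In the preimplantation embryo these factors are first supplied by the oocyte and then made from the embryo's own genome.

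Counts on genes came to 12505685 in B6, against 33891715 in NOD 1 and 36171013 in NOD 2, so that the B6 library had the lowest precision. Levels are given as CPM (a gene's share of all counts, times 1e6) on edgeR's TMM scale, or as FPKM, which also divides by the listed transcript length. A gene was called at an edgeR adjusted p under 0.05 and at least 2-fold. The median log2 fold change (NOD over B6) of the 14456 genes tested was 0.26 on this scale, and 0.07 with total counts alone, so that every log2 value below sits on a scale whose centre depends on the scaling. Markers of the inner cell mass summed to 721 CPM in B6, against 559 in NOD 1 and 786 in NOD 2, and those of the trophectoderm to 3423, 3630 and 2989 CPM. These sums rest on few genes, and single markers moved. Of the 9 inner cell mass markers, Tdgf1 and Pdgfra were up-regulated and Sox2 and Gata6 down-regulated, with a list median of 1.23 on the log2 scale, and Gata6 alone gave 385 CPM of the B6 sum, against 91.5 in NOD 1 and 130 in NOD 2. Of the 8 trophectoderm markers tested, 6 were lower in both NOD libraries, with a list median of -0.81 and 4 lower at an unadjusted p under 0.05, whereas Dppa1 was up-regulated, from 209 CPM in B6 to 1405 and 1034 in NOD 1 and NOD 2. The 7 leukocyte markers summed to 0.294 to 1.03 CPM, with Ptprc, Lyz2, Fcer1g and Cd79a at 0 in every library, and the 8 cumulus and oviduct markers to 0.220 to 0.484 CPM, with Has2, Ptx3, Inha and Fshr at 0. The part of these levels in the results below was not tested.

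Of the 56 genes, 55 passed the filter on low counts, Eif5a2 and Eif4e3 through the NOD libraries alone and Eif4e1b through B6 alone, so that these 3 had to differ between the strains. Up-regulation in NOD was called for 11 of these 55 genes (10 without Eif5a2), against 10.3% of all genes tested, and down-regulation for 7, against 7.39%, or 18 in either direction, against 17.7%. Whether called or not, 28 of the 55 were higher than B6 in both NOD libraries and 26 were lower in both, beside 45.3% and 39.4% of all genes tested. The 28 include Eif5a2 and Eif4e3 and the 26 include Eif4e1b, the 3 genes that had to differ. These counts also include both Eif3j1 and Eif3j2, which hold the same reads, and with the pair taken as 1 gene 25 of 54 were lower in both. Their median log2 fold change was 0.10 on the TMM scale and -0.08 with total counts alone. By comparison, 26 of the 79 cytoplasmic ribosomal protein genes were down-regulated and 1 was up-regulated, with a median of -0.90. In both NOD libraries 58 of the 79 were lower than B6 and 18 were higher. With limma-voom 0 of all 14456 genes were called, and with edgeR without the filter 0 of 16765, so that no member was called either, and the calls below rest on the test and the filter. An unadjusted p under 0.05 was given to 30 members by limma-voom, beside 27.1% of all genes, and to 35 by edgeR without the filter, beside 33.2%. Initiation and elongation factors were also counted apart. Of the 48 Eif genes, 10 were up-regulated, Eif5a2 among them, and 4 down-regulated, and their median log2 fold change was 0.24. Of the 7 Eef genes tested, 1 was up-regulated and 3 were down-regulated, with a median of -0.93. These lists are described by counts and medians, with no test of one list against another.

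**Figure D1:**
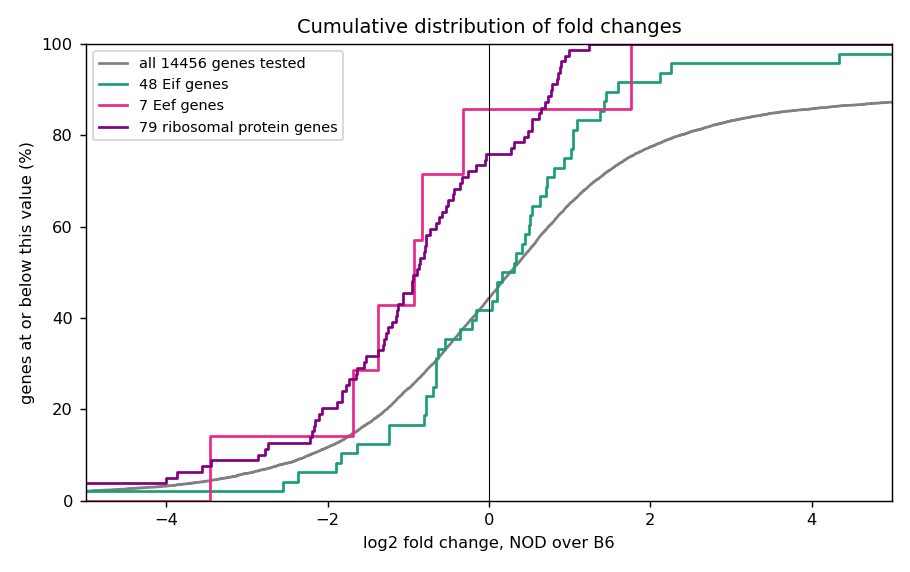
Cumulative percentage of genes (vertical axis) at or below each log2 fold change of NOD over B6 (horizontal axis, TMM scale) for all genes tested, ribosomal protein genes, Eif genes and Eef genes; genes beyond the axis limits are counted but not seen. The Eif curve has its median at 0.24, beside 0.26 for all genes, and the Eef and ribosomal protein curves have theirs at -0.93 and -0.90.

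The start-site stretches of 6 genes are printed because they show which of the called genes with the highest FPKM hold a pyrimidine run near the start site. They are the 3 down-regulated and the 3 up-regulated genes with the highest mean FPKM among those with an entry in the RefSeq promoter table (GRCm38.p6, the mm10 coordinates). Each holds 30 bases before and 30 bases from the RefSeq start, on the gene's own strand, and capitals mark a run of at least 8 letters that are each C or T.
Eef2, chr10:81176601-81176660, plus strand: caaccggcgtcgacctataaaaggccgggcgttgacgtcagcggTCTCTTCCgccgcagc
Eif3f, chr7:108934385-108934444, plus strand: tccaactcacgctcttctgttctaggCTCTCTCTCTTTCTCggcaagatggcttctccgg
Eif4a1, chr11:69672394-69672453, minus strand: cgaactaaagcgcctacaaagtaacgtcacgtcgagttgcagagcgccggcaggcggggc
Eif5a, chr11:69921357-69921416, minus strand: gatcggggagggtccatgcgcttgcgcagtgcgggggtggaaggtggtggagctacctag
Eif5, chr12:111538071-111538130, plus strand: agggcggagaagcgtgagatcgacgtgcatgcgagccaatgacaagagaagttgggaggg
Eef1e1, chr13:38658999-38659058, minus strand: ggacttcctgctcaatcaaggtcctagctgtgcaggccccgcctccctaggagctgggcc
Among these, Eef2 had a run of 8 letters and Eif3f a run of 15, and the first lay 14 bases inside the transcript, whereas the second began 4 bases before the RefSeq start. The longest run was 7 or fewer letters in Eif4a1, Eif5a, Eif5 and Eef1e1. A run of at least 8 letters lay within this window in 9 of the 42 member genes with an entry (21.4%), in 3116 of 14237 protein-coding genes (21.9%) and in 30 of 56 ribosomal protein genes (53.6%). By call, it was in 2 of 6 down-regulated, 6 of 27 uncalled and 0 of 8 up-regulated genes with an entry. Only the transcript strand was searched, and a match is a description of letters.

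Elongation factors of the eEF1 and eEF2 complexes were measured first. Eef1d (NM_029663, chr15:75894796-75909344), which encodes the delta subunit of the exchange factor that recharges eEF1A with GTP, was at 1341 CPM in B6, against 416 in NOD 1 and 417 in NOD 2. It fell by 1.69 on the log2 scale (SE 0.19, edgeR adjusted p = 0.0204), or 3.22-fold. Both NOD libraries lay well below B6, and they differed by less than 1 CPM (416 ± 0.48, SD, n = 2). Eef2 (NM_007907, chr10:81176631-81182509), the GTPase that moves the ribosome along the mRNA, was at 2169.5 CPM in B6, against 939 in NOD 1 and 735 in NOD 2. Its log2 fold change was -1.37 (SE 0.22, edgeR adjusted p = 0.0277). The NOD libraries were both lower than B6, although they differed more from each other than for Eef1d.

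The remaining eEF1 subunits did not pass the test on the TMM scale, although Eef1b2 was called with total counts alone. Eef1a1, which carries charged tRNA to the ribosome and had the highest FPKM of the elongation factors, was at 1809.5 CPM in B6, against 1560.2 in NOD 1 and 1339 in NOD 2. Its log2 fold change of -0.32 (SE 0.19) had an edgeR adjusted p of 0.264. For the nucleotide exchange subunit Eef1b2, the levels were 774, 453 and 359.6 CPM, with a log2 fold change of -0.93 and an edgeR adjusted p of 0.0567. For Eef1g, the structural subunit, they were 238, 127 and 140.3 CPM, with -0.83 and 0.0728. Each of these 3 genes was lower than B6 in both NOD libraries. Of the 50-base words of the Eef1a1 and Eef1g transcripts, 60.6% and 64.3% also occur in another gene, so that reads of these genes may have been split or lost, whereas the shares were 7.86% for Eef2 and 7.75% for Eef1d. Eef1a2, the isoform of adult neurons and muscle, had 3, 0 and 0 counts and was not tested.

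Together, the 8 Eef genes came to 6488 CPM in B6, against 3914 in NOD 1 and 3478 in NOD 2, or 0.603 and 0.536 of B6. The 5 genes whose products carry out elongation (Eef1a1, Eef1b2, Eef1d, Eef1g and Eef2), a subset set apart after the values were seen, came to 6331, 3495 and 2991 CPM. Ribosomal protein genes summed to 36121, 15945 and 15816 CPM. Within a library the ratio of summed Eef counts to summed ribosomal protein counts needs no scaling between libraries, and it was 0.180 in B6, against 0.245 in NOD 1 and 0.220 in NOD 2. For the 5 genes it was 0.175, 0.219 and 0.189. The same ratio for the 48 Eif genes was 0.475 in B6, against 1.31 in NOD 1 and 1.40 in NOD 2. The Eef ratio lay closer together across the libraries than the Eif ratio, with 1 B6 library and no test.

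A pair of Eef genes with other tasks stood farthest apart. Eef2k (NM_007908, chr7:120842831-120907219) encodes the calmodulin-dependent kinase that phosphorylates eEF2 and so slows elongation. It had 312, 74 and 66 counts, or 22.9 CPM in B6, against 2.24 in NOD 1 and 1.94 in NOD 2. The log2 fold change of -3.45 (SE 0.56, edgeR adjusted p = 0.0284) was the lowest among the Eef genes, and B6 lay far above both NOD libraries. Eef1e1 (NM_025380, chr13:38645691-38659028) encodes a scaffold protein of the multi-tRNA synthetase complex. It was at 134 CPM in B6, against 417 in NOD 1 and 485 in NOD 2, and rose by 1.75 on the log2 scale (SE 0.25, edgeR adjusted p = 0.0242). Per length, Eef1e1 was at 0.275 of Eef1d in B6, and at 2.76 and 3.21 times Eef1d in NOD 1 and NOD 2.

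**Figure D2:**
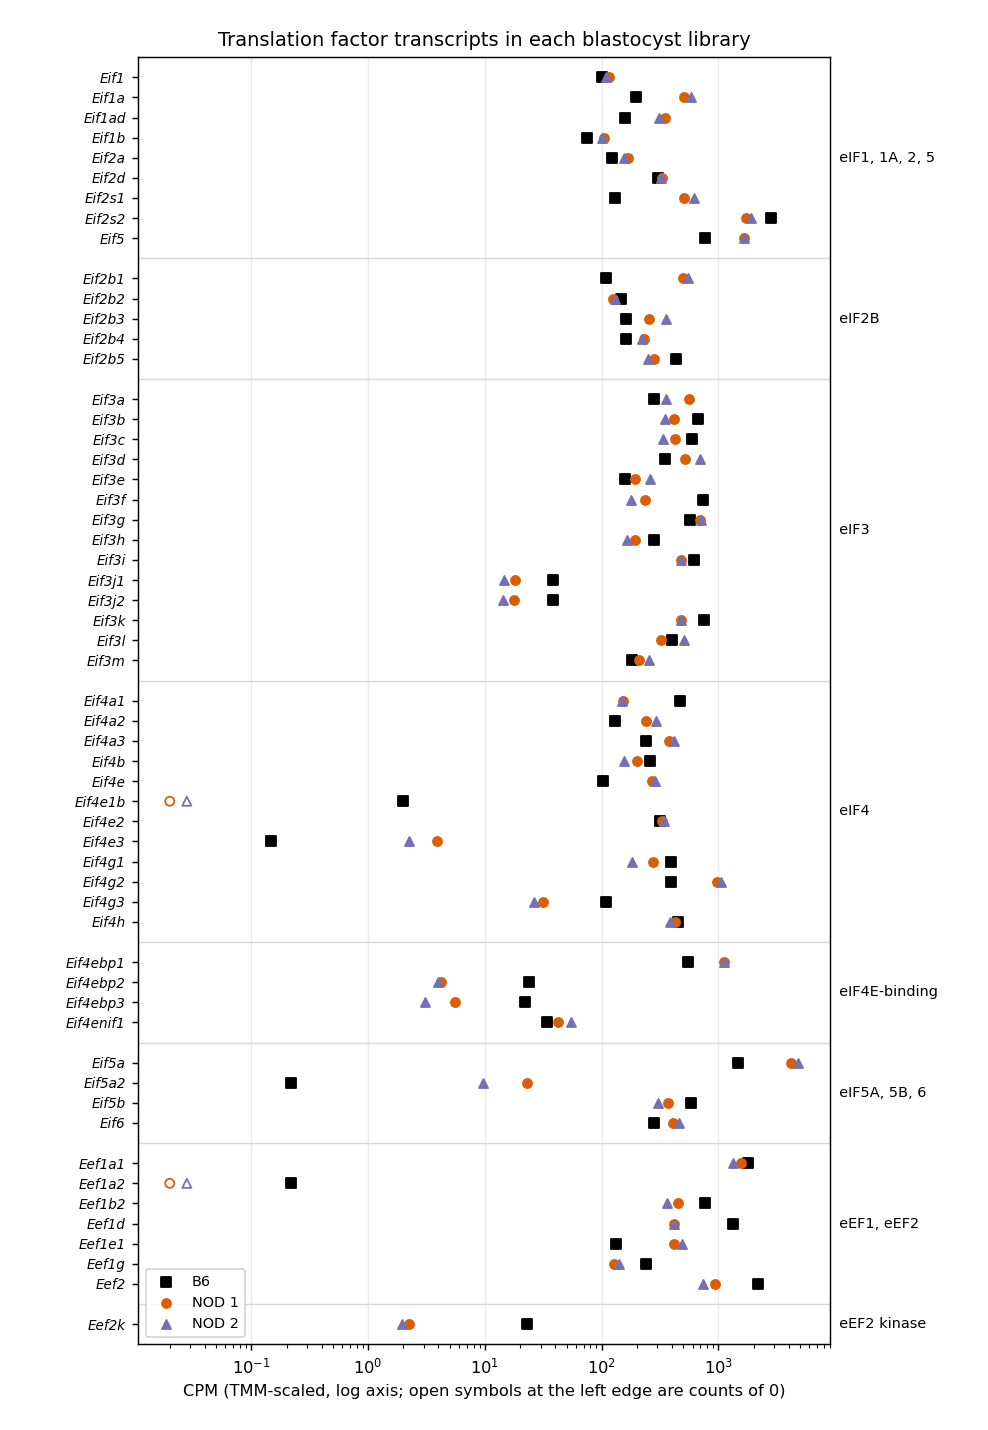
Level of each gene in each library (CPM on the TMM scale, log axis), grouped by role, with 1 point per library. Eif5a lies at 1481 CPM in B6 and at 4146 and 4849 in NOD 1 and NOD 2, whereas Eef2 and Eef1d lie higher in B6 than in either NOD library.

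Start codon selection and delivery of the initiator tRNA depend on eIF1, eIF1A, eIF2 and eIF5. Of the 9 genes placed in this group, 4 were up-regulated, beside 10.3% of all genes tested. The 4 include Eif1ad, which works elsewhere and lost its call under other scalings. Eif2s1 (NM_026114, chr12:78862072-78887010), the alpha subunit of eIF2 and the site at which stress kinases phosphorylate it, was at 129 CPM in B6, against 507 in NOD 1 and 613 in NOD 2. It rose by 2.12 on the log2 scale (SE 0.26, edgeR adjusted p = 0.0223), or 4.34-fold, and both NOD libraries were far above B6. The beta subunit gene Eif2s2, with the highest FPKM of this group, was at 2807, 1706 and 1913 CPM. Its log2 fold change of -0.63 (SE 0.17) had an edgeR adjusted p of 0.0653, with both NOD libraries below B6. Per length, Eif2s1 was 0.0366 of Eif2s2 in B6, against 0.237 in NOD 1 and 0.255 in NOD 2, so that the ratio of these subunit genes of the same complex was higher in both NOD libraries. Of the Eif2s2 words, 27.8% occur in another gene.

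Eif5 (NM_173363, chr12:111538101-111546753), the factor that makes eIF2 hydrolyse GTP, was at 770.4 CPM in B6, against 1641 in NOD 1 and 1644 in NOD 2. The NOD libraries differed by only a few CPM, and the log2 fold change was 1.09 (SE 0.18, edgeR adjusted p = 0.0299). With total counts alone it was 0.91, under the 2-fold limit. Eif1a (NM_010120, chr18:46597704-46610225), which encodes an eIF1A protein that helps scan for the start codon, was at 198 CPM in B6, against 504 in NOD 1 and 582 in NOD 2. It rose by 1.46 on the log2 scale (SE 0.24, edgeR adjusted p = 0.0290), with both NOD libraries above B6, as in 45.3% of all genes tested. Eif1ad (NM_027236, chr19:5366813-5371511), named for its eIF1A-like domain, was at 159, 349 and 309 CPM, with a log2 fold change of 1.05 (SE 0.24, edgeR adjusted p = 0.0493). Its call was lost under 3 other scalings, and 16.7% of its exonic bases overlap Banf1, which was at 541, 903 and 817 CPM and was not called, with the strands counted together. The other uncalled genes, Eif1, Eif1b, Eif2a and Eif2d, had log2 fold changes between 0.10 and 0.45.

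The guanine nucleotide exchange factor eIF2B, which returns eIF2 to its active form, has 5 subunit genes. Eif2b1 (NM_145371, chr5:124570214-124579057), the alpha subunit through which phosphorylated eIF2 is sensed, was at 109 CPM in B6, against 492 in NOD 1 and 551 in NOD 2. With a log2 fold change of 2.26 (SE 0.25, edgeR adjusted p = 0.0203), or 4.79-fold, it rose most of the called members with over 3 counts in B6. The NOD libraries were close to each other and far above B6. It also had the highest mean FPKM of this group. The catalytic subunit gene Eif2b5, highest of the group per length in B6, was at 432, 280.2 and 251 CPM, and its log2 fold change of -0.70 did not pass (edgeR adjusted p = 0.0858). Per length, Eif2b1 was 0.332 of Eif2b5 in B6 and 2.31 and 2.89 times Eif2b5 in NOD 1 and NOD 2. Eif2b1 thus went from the lowest of the 5 subunit genes per length in B6 to the highest in both NOD libraries. Uncalled log2 fold changes were -0.21 for Eif2b2, 0.49 for Eif2b4 and 0.93 for Eif2b3.

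**Figure D3:**
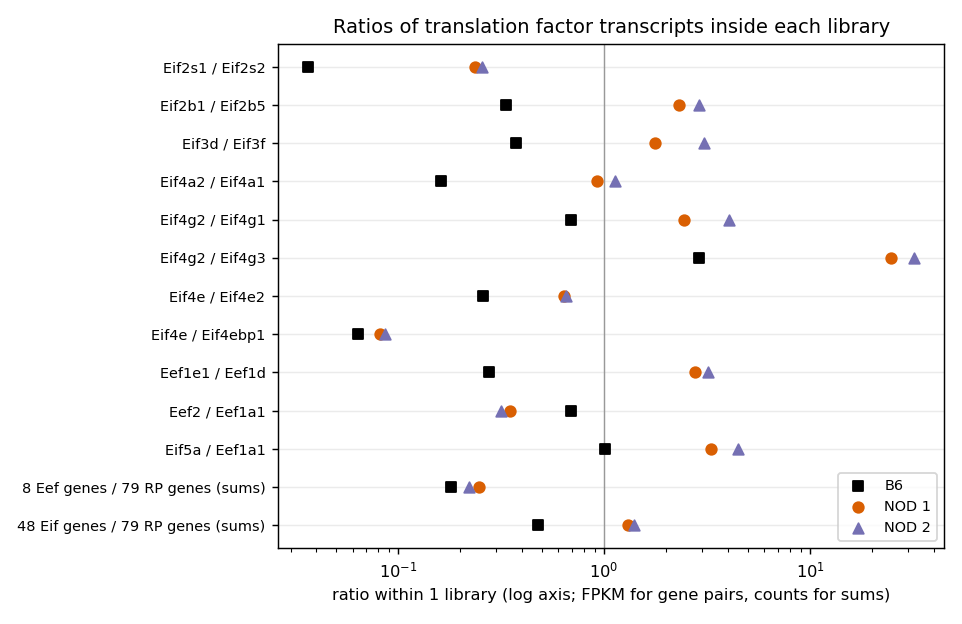
Ratios between genes within each library (log axis), which need no scaling between libraries; ratios of single genes are of FPKM and those of summed lists are of counts. The ratio of summed Eef to summed ribosomal protein counts is 0.180, 0.245 and 0.220 in B6, NOD 1 and NOD 2, whereas Eif2s1 to Eif2s2 is 0.0366, 0.237 and 0.255.

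Genes of eIF3, the large scaffold on the small ribosomal subunit, numbered 14 in the table. Eif3f (NM_025344, chr7:108934415-108941942), a subunit with an MPN domain, was at 734 CPM in B6, against 234 in NOD 1 and 179 in NOD 2. It fell by 1.83 on the log2 scale (SE 0.25, edgeR adjusted p = 0.0237), or 3.56-fold, with both NOD libraries well under B6. This was the only eIF3 gene called by edgeR, and with Eif3j1 and Eif3j2, which hold the same reads, taken as 1 gene, 6 of 13 were lower and 1 higher at an unadjusted p under 0.05, beside 17.7% and 22.2% of all genes tested. Eif3k, which had the highest FPKM of the group in B6 and by the mean of the strains, was at 978 FPKM in B6, against 555 in NOD 1 and 540.0 in NOD 2. In NOD 1 and NOD 2 Eif3g was higher, at 639 and 635 FPKM. The log2 fold change of Eif3k was -0.65 (SE 0.20, edgeR adjusted p = 0.0788). Of the 13 eIF3 measurements, 7 were lower in both NOD libraries and 5 were higher in both, beside 39.4% and 45.3% of all genes tested, and Eif3l had 1 NOD library on each side of B6, and their median was -0.36 on the log2 scale. The lowest uncalled value, -1.24, belonged to Eif3j1 and Eif3j2, which the table places at the same locus with 522, 594 and 492 and with 521, 591 and 491 counts, so that they are 1 measurement. The highest was 0.80 for Eif3d (edgeR adjusted p = 0.0965), 32.9% of whose exonic bases overlap another gene. Per length, Eif3d was 0.374 of Eif3f in B6, 1.76 times in NOD 1 and 3.06 times in NOD 2.

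The eIF4 group binds the mRNA cap through eIF4E, joins it to the ribosome through eIF4G and unwinds it through the helicase eIF4A. Eif4e (NM_007917, chr3:138526191-138557599) was at 103 CPM in B6, against 269 in NOD 1 and 285 in NOD 2. It rose by 1.42 on the log2 scale (SE 0.25, edgeR adjusted p = 0.0319), with both NOD libraries above B6. Eif4e2, a cap-binding relative that represses translation, was at 314, 331 and 343 CPM, with a log2 fold change of 0.10 (edgeR adjusted p = 0.742). The oocyte form Eif4e1b had 27 counts in B6 and 0 in both NOD libraries, at least 21.8-fold lower against a floor of 3 counts per library, with an edgeR adjusted p of 0.0759. Eif4e3 had 2, 128 and 76 counts, a ratio of 20.7 (exact 95% interval 5.66 to 172, for counting error only), and was not called either (edgeR adjusted p = 0.0922).

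Among the scaffolds, Eif4g2 (NM_013507, chr7:111067985-111083030), which lacks the eIF4E-binding part and serves cap-independent initiation, was at 389 CPM in B6, against 966 in NOD 1 and 1057 in NOD 2. It rose by 1.38 on the log2 scale (SE 0.21, edgeR adjusted p = 0.0259). Eif4g3 (NM_001256195, chr4:137993456-138207079), a full-length scaffold, was at 108, 31.5 and 26.4 CPM, and fell by 1.90 on the log2 scale (SE 0.33, edgeR adjusted p = 0.0320). The 2 genes were thus called in opposite directions, with Eif4g2 above B6 and Eif4g3 below it in both NOD libraries. Eif4g1, the principal scaffold, was at 392, 276 and 182 CPM, with a log2 fold change of -0.78 (edgeR adjusted p = 0.139). Per length, Eif4g2 was 0.690 of Eif4g1 in B6, 2.44 times in NOD 1 and 4.05 times in NOD 2.

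Helicase genes were found on both sides. Eif4a1 (NM_001159375, chr11:69666936-69672423), the main eIF4A gene of dividing cells, was at 468 CPM in B6, against 152 in NOD 1 and 150.3 in NOD 2. Its log2 fold change was -1.63 (SE 0.22, edgeR adjusted p = 0.0231), and the NOD libraries were close together and under B6. The paralog Eif4a2 was at 129, 239.7 and 291 CPM, with a log2 fold change of 1.04 that did not pass (edgeR adjusted p = 0.0595). It was called by edgeR with at least 10 counts in every library and with one dispersion for all genes. Per length, Eif4a2 was 0.162 of Eif4a1 in B6, against 0.924 in NOD 1 and 1.13 in NOD 2. Since 65.3% of the 50-base words of Eif4a1 occur in another gene, its level is uncertain. Eif4a3, a helicase of the exon junction complex with the highest FPKM of this group in both NOD libraries and by the mean of the strains, though not in B6, was at 240.4, 376 and 413 CPM, with a log2 fold change of 0.71 (SE 0.23, edgeR adjusted p = 0.0881). Eif4b and Eif4h, cofactors of the helicase, had uncalled values of -0.54 and -0.16.

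The eIF4E-binding proteins keep eIF4E from eIF4G until mTORC1 phosphorylates them. Eif4ebp1 (NM_007918, chr8:27260327-27275656), the highest of them per length, was at 552 CPM in B6, against 1114 in NOD 1 and 1127 in NOD 2. It rose by 1.02 on the log2 scale (SE 0.20, edgeR adjusted p = 0.0358), just over the 2-fold limit. With DESeq2 size factors and with DESeq2 the value was 0.98, and with total counts alone 0.84, so that the call was lost. It was also lost with upper-quartile factors (edgeR adjusted p = 0.0508). Eif4ebp2 (NM_010124, chr10:61432497-61452669) was at 24.0, 4.24 and 3.97 CPM and fell by 2.55 on the log2 scale (SE 0.51, edgeR adjusted p = 0.0385). On the TMM scale the paralogs were called in opposite directions by edgeR. Their FPKM ratio, Eif4ebp1 over Eif4ebp2, was 42.0 in B6, against 479.9 in NOD 1 and 518 in NOD 2. The ratio of Eif4e to Eif4ebp1 FPKM was 0.0637, 0.0820 and 0.0860. Eif4ebp3, of which 67.3% of exonic bases overlap another gene, was at 22.0, 5.51 and 3.06 CPM and was not called, with a log2 fold change of -2.36 (edgeR adjusted p = 0.0589). DESeq2 did call Eif4ebp3, as did edgeR with at least 10 counts in every library and with one dispersion for all genes. Eif4enif1, which carries eIF4E into the nucleus, was at 33.9, 42.5 and 54.1 CPM, with a log2 fold change of 0.51.

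**Figure D4:**
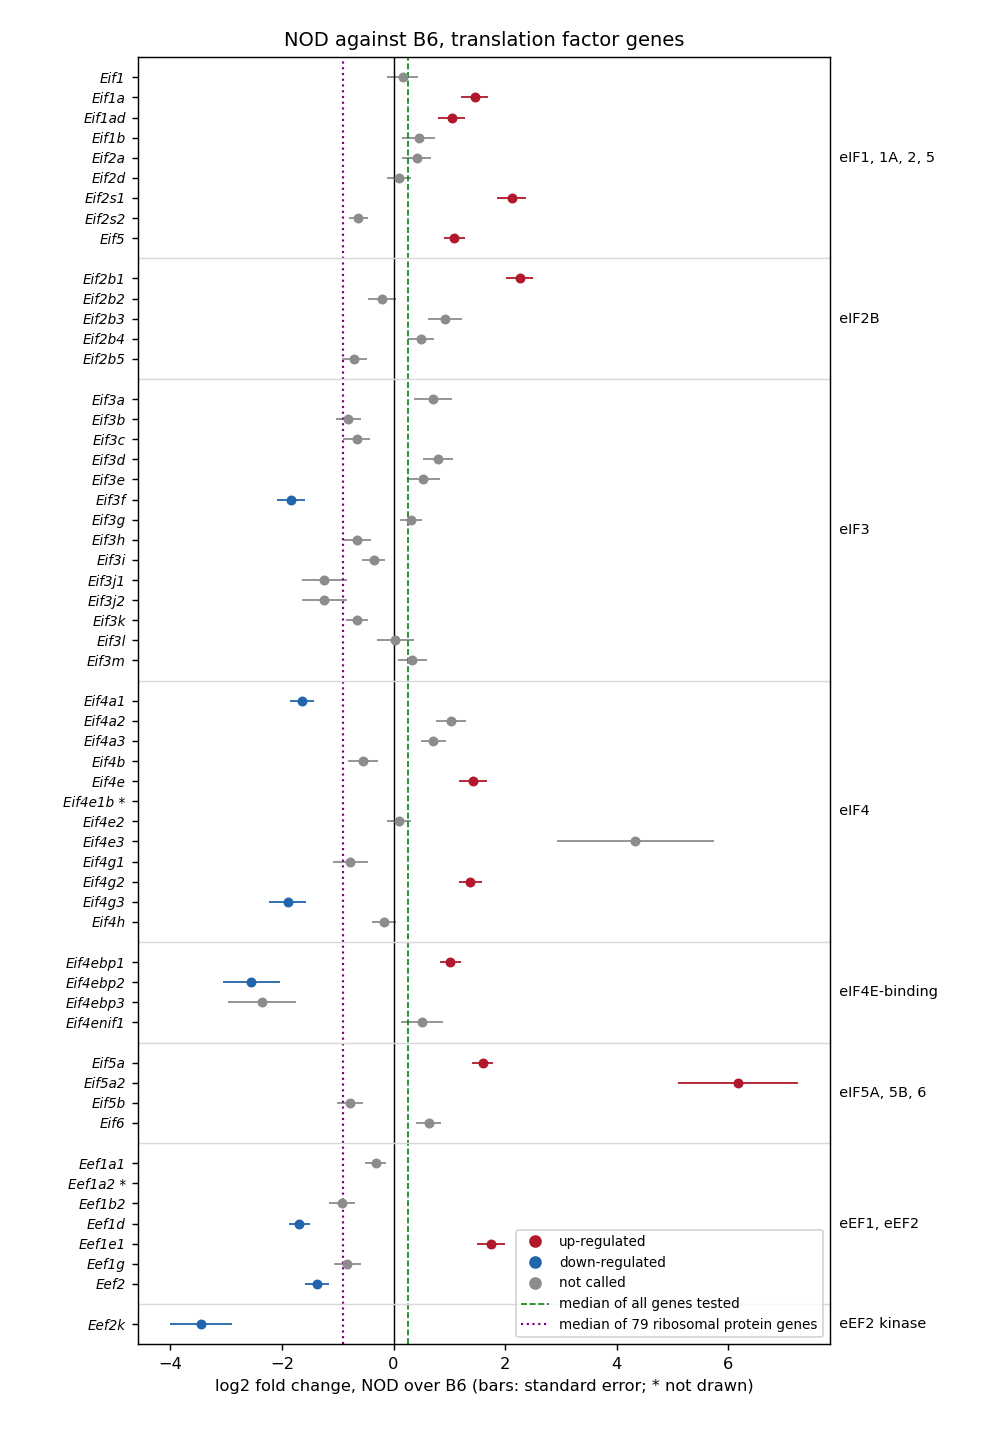
Log2 fold change of NOD over B6 for each tested gene with its standard error from the edgeR fit, by role, with called genes in colour; Eif4e1b (0 counts in both NOD libraries) and the untested Eef1a2 are not drawn, and dashed and dotted lines mark the medians of all genes tested and of ribosomal protein genes. Called values run from -3.45 for Eef2k to 6.18 for Eif5a2, which passed the filter through NOD alone with 3 counts in B6, and the eIF3 group has 1 called gene, Eif3f at -1.83.

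The last group holds eIF5A, which helps the ribosome past difficult peptide bonds and carries the amino acid hypusine, with eIF5B and eIF6, which act on subunit joining. Eif5a (NM_001166589, chr11:69916712-69921386) was at 1481 CPM in B6, against 4146 in NOD 1 and 4849 in NOD 2. It rose by 1.60 on the log2 scale (SE 0.19, edgeR adjusted p = 0.0215), or 3.04-fold, with both NOD libraries far over B6. Per length it was the highest of the 56 genes in both NOD libraries. The FPKM ratio of Eif5a to Eef1a1 was 1.01 in B6, against 3.29 in NOD 1 and 4.49 in NOD 2. Its paralog Eif5a2 (NM_177586, chr3:28781311-28798846) had 3, 758 and 331 counts, or 0.220, 22.9 and 9.73 CPM. The pooled ratio was 73.7 (exact 95% interval 25.2 to 358, for counting error only), and edgeR gave a log2 fold change of 6.18 (SE 1.08, adjusted p = 0.0316). The NOD libraries differed from each other here, the B6 level rests on 3 counts, the gene passed the filter on low counts through NOD alone, so that its call is no support for a difference, and with one dispersion for all genes the edgeR adjusted p was 0.0616, over the threshold. Eif5b was at 578, 368 and 302 CPM, with a log2 fold change of -0.79 (edgeR adjusted p = 0.0761), and Eif6 at 282, 407 and 464 CPM, with 0.63 (edgeR adjusted p = 0.114).

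Members whose mRNAs are known TOP mRNAs were compared with the rest by count. These are the 5 elongation genes summed above, with Eif3a, Eif3e, Eif3f, Eif3h and Eif4b. Their counts thus repeat those of the Eef genes in part. Of these 10 genes, 3 were down-regulated (Eef1d, Eef2 and Eif3f), beside 7.39% of all genes tested. In both NOD libraries 8 were lower, beside 39.4%, and the median was -0.74 on the log2 scale. All 5 elongation genes were among the 8, whereas Eif3a and Eif3e were higher in both. None of the 10 was up-regulated by edgeR or by DESeq2, and none was higher at an unadjusted p under 0.05, beside 10.3%, 18.5% and 22.2% of all genes. Of the 45 other genes tested, 4 were down-regulated and 11 were up-regulated (10.3% of all genes). In both NOD libraries 18 were lower, and the median was 0.31. The 11 include Eif5a2 and the 18 include Eif4e1b, each of which passed the filter through 1 strain alone. With Eif3j1 and Eif3j2 taken as 1 gene, 17 of 44 were lower in both. The list was drawn up with earlier results of these data known. The down-regulated genes had a median GC content of 51.5%, as had the uncalled genes, and the up-regulated genes 43.2%, whereas median lengths were 2844, 1925 and 2872 bases in that order. The part of GC content in the calls was not tested.

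Other cytoplasmic translation factors and regulators, a list of genes outside the symbol rule, numbered 33 tested, of which 4 were down-regulated, beside 7.39% of all genes tested. In both NOD libraries 15 genes of the list were above B6 and 16 below it, with a median log2 fold change of -0.16, or 0.027 without NOD 2. DESeq2 called 8 of them down-regulated, beside 14.8% of all genes with a DESeq2 adjusted p, and 9 were lower at an unadjusted edgeR p under 0.05, beside 17.7%. Rptor, the mTORC1 subunit that recruits its substrates, was at 91.9 CPM in B6, against 17.0 in NOD 1 and 12.5 in NOD 2, and fell by 2.64 on the log2 scale (SE 0.38, edgeR adjusted p = 0.0244). Mknk2, a kinase of eIF4E, was at 91.9, 16.9 and 8.55 CPM and fell by 2.85 (SE 0.50, edgeR adjusted p = 0.0321). Pdcd4, an inhibitor of eIF4A, was at 146, 16.4 and 28.0 CPM and fell by 2.71 (SE 0.43, edgeR adjusted p = 0.0272), and Paip1, a partner of the poly(A)-binding protein, was at 52.5, 16.1 and 18.0 CPM and fell by 1.62 (SE 0.37, edgeR adjusted p = 0.0474). In each the NOD libraries were both under B6. No gene of this list was up-regulated by edgeR after the filter used here, beside 10.3% of all genes. However, 6 were higher at an unadjusted p under 0.05, beside 22.2%, and DESeq2 called 2, beside 18.5%. With at least 10 counts in every library edgeR called 4, beside 2012 of 10842 genes. Of the mitochondrial translation factors, 11 were tested, and edgeR after the filter used here called none. At an unadjusted edgeR p under 0.05, 3 were higher and 1 lower, and DESeq2 called 2 up-regulated (the same shares of all genes apply). With at least 10 counts in every library edgeR called 2 up and 1 down. Their median log2 fold change was 0.51 on the TMM scale.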

How the data were processed

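RNA-Seq of 3 blastocyst libraries was analysed from the table of read counts the authors deposited, with groups taken from the strain labels. Per the labels and methods, cDNA was made with the SMART-Seq v4 kit and amplified by PCR without molecular identifiers, so that intervals and floors cover counting error only. The authors used STAR to align single-end reads to mm10, and HOMER to count those on the exons of RefSeq genes, both strands together and without normalization. The submitters' processing notes give STAR version 2.2.0c and CASAVA version 1.8.2.

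Counts were fitted in R 4.3.3 with edgeR 4.0.16 by its quasi-likelihood test with trended dispersion, after filterByExpr and TMM scaling, on all 3 libraries, with Benjamini-Hochberg adjustment over 14456 genes. The fit had 1 residual degree of freedom. An exact permutation test of 1 library against 2 cannot go below p = 0.333, so none is given. FPKM was computed from the listed lengths, and the gene pairs given as ratios were chosen after their values were seen. To see which genes may share reads, the 50-base words of each member's transcript were looked up in the GENCODE M21 transcripts of other genes. Alternatives used DESeq2 1.42.0, limma 3.58.1, other scalings and other filters. The fit was tested on simulated counts, in which 87 of 190 genes changed by 4-fold or 8-fold were called, and 1 unchanged gene. A gene that was not called is thus not shown to be unchanged.

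Genes with full statistics were all called members and, in each role group, the one with the highest mean FPKM. Members and lists were chosen with earlier results of these data known. A start-site sequence was found for 42 of the 56 genes.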

Additional observations from a re-analysis of the deposited data

How the results depend on the processing

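The 18 called genes had the same sign of log2 fold change in every alternative in which they were tested, and Eif5a2 was not testable with at least 10 counts in every library. No count of calls can be made without a NOD library, since 1 library would then stand in each group. No paired analysis was possible because there is only 1 B6 library, so that at most 1 NOD library could be paired. Counts of calls depended most on the test and the filter. With no filter on low counts, and with limma-voom, 0 genes were up-regulated and 0 down-regulated among the factors, among the other cytoplasmic factors and among the ribosomal protein genes, as among all 16765 and 14456 genes tested. Without the filter 35 of the 56 factor genes, and with limma-voom 30, had an unadjusted p under 0.05, with lowest adjusted p of 0.0649 and 0.0631. Otherwise 8 to 11 factor genes were up-regulated and 6 to 8 down-regulated, the lowest of 6 among genes with under 10% of their 50-base words in another gene. Some alternatives also added calls, namely Eef1b2 with total counts alone and Eif4ebp3 with DESeq2. Both Eif4ebp3 and Eif4a2 were added with at least 10 counts in every library and with one dispersion for all genes. The median over the factor genes was 0.063 with DESeq2 size factors, 0.063 with DESeq2 and -0.084 with total counts alone, and 0.08 to 0.12 when a NOD library was left out. For the other cytoplasmic factors, at least 10 counts in every library gave 4 up and 7 down, DESeq2 2 up and 8 down, and one dispersion for all genes, an alternative chosen after seeing the data, 1 up. Their median, -0.16 on the TMM scale, was -0.34 with total counts alone and ranged from -0.15 without NOD 1 to 0.027 without NOD 2. For the mitochondrial factors, at least 10 counts in every library gave 2 up and 1 down, and DESeq2 2 up. Their median was 0.47 with DESeq2 size factors and with DESeq2, 0.32 with total counts alone, 0.53 without the filter, 0.56 with at least 10 counts and 0.50 to 0.52 when a NOD library was left out. For the ribosomal protein genes, up-regulated calls were 0 with total counts alone or upper-quartile factors and 2 with at least 10 counts, and the median was -1.08 with total counts alone. The summed level of the Eef genes in NOD over B6, 0.570 on the TMM scale, was 0.501 with total counts alone.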

Other observations

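The subunit genes of these factors on the sex chromosomes were outside the rule. Eif1ax, the X-linked eIF1A gene, had 3645, 7086 and 13316 counts in B6, NOD 1 and NOD 2, with a log2 fold change of 0.18. Eif2s3x, the X-linked gene of the gamma subunit of eIF2, had 817, 520 and 884 counts, or 60.0, 15.7 and 26.0 CPM, and was not called (log2 fold change -1.52, edgeR adjusted p = 0.0750). Its Y-linked counterpart Eif2s3y had 872, 3122 and 0 counts in the same order, so that the NOD pair differed in this Y-linked gene.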
